A study of Arabidopsis thaliana with 15 samples.

Results

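Chlorophyll is built from 5-aminolevulinic acid (ALA), which plastids make from glutamate. The tetrapyrrole made from it is shared between heme and chlorophyll until Mg chelatase inserts magnesium, and the magnesium branch ends with the light-dependent reduction of protochlorophyllide and the oxidation of part of chlorophyll a to chlorophyll b. Seedlings hold these steps in balance because free intermediates are phototoxic, and transcription of the genes for the entry enzyme, Mg chelatase and the reductases is one of the levels at which they do so. The 10 nuclear genes described here were picked by identifier as members of this pathway, and all 10 were among the 21777 genes in the table. The 10 genes and the gene lists below were chosen with earlier results of these data known. Their counts beside the share of all genes are therefore a description and no test. The 10 genes are HEMA1 (AT1G58290), CHLH (AT5G13630), CHLI1 (AT4G18480), CHLD (AT1G08520), GUN4 (AT3G59400), CHLM (AT4G25080), PORA (AT5G54190), PORB (AT4G27440), PORC (AT1G03630) and CAO (AT1G44446).

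RNA was measured in shoots of 12-day-old Arabidopsis thaliana seedlings grown on plates with 16 h of light and 8 h of darkness at 80 µE of white light, in 5 genotypes of 3 libraries each. The line eS6A-Δ6SA and the line eS6A-HA were mutant in both RPS6A and RPS6B, the paralogous genes for ribosomal protein eS6 of the small subunit, and each carried the transgene it is named for. The lines rps6a and rps6b carried a mutation in 1 of those genes, and WT carried none. The promoter of the transgenes and the number of independent lines were not given in the sources used here, and plants mutant in both genes without a transgene were not analysed here. The labels do not say that replicates came from separate cultures, so p-values measure the spread between these libraries, which may be technical.

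Gene reads ranged from 5726410 to 10009723 per library, and reads of nuclear genes from 2717321 to 4278582. Plastid genes took 56.7% to 58.9% of gene reads in eS6A-Δ6SA, 60.3% to 62.3% in eS6A-HA, 52.0% to 52.5% in rps6a, 56.2% to 57.0% in rps6b and 58.7% to 59.7% in WT. The part of this share in the shift under spike-in scaling, given below, was not tested. RPS6A averaged 69.8 ± 13.7 normalized counts in rps6a and 952 ± 120 in WT (SD, n = 3 each), and RPS6B averaged 266 ± 12.2 in rps6b and 932 ± 41.3 in WT. In the transgenic lines RPS6B was lower than in rps6b, with 64.3 ± 5.11 in eS6A-Δ6SA and 86.7 ± 12.8 in eS6A-HA. RPS6A averaged 1724 ± 125 in rps6b. The shoot label was checked with 2 marker lists. The summed level of 6 green shoot markers lay between 148484 and 165846 normalized counts in eS6A-Δ6SA, 148322 and 160219 in eS6A-HA, 122724 and 149674 in rps6a, 138731 and 146241 in rps6b, and 146304 and 171979 in WT. The summed level of 6 root markers lay between 1784 and 2101 in eS6A-Δ6SA, 1551 and 1662 in eS6A-HA, 3675 and 4976 in rps6a, 2320 and 2490 in rps6b, and 1314 and 2045 in WT, and the beta-glucosidase gene PYK10 alone averaged 1936, 1585, 4104, 2365 and 1574, with the genotypes in that order. By limma, 4 of 6 green shoot markers fell in rps6a against WT and 2 of 6 in rps6b, with medians of -0.28 and -0.12, and 0 rose. With spike-in scaling 1 rose and 0 fell in rps6a, where 6050 of all genes were called, 95.1% of them higher. Of 3 tested root markers, 3 rose in rps6a and 2 in rps6b, with medians of 2.56 and 0.95, and 0 fell. Of all genes tested, 10.8% fell and 10.4% rose in rps6a, and 11.7% fell and 11.6% rose in rps6b. In eS6A-Δ6SA and eS6A-HA 0 of either list passed, where 2.57% and 0.796% of all genes changed. The root hair genes EXPA18, COBL9 and PRP3 averaged under 4 in each genotype, and EXPA18 was at 0 in every library of eS6A-Δ6SA and WT. In bulk shoots, fewer cells of a type and less RNA per cell cannot be told apart, and the part of tissue makeup in the falls of HEMA1, CHLH, CHLM and CAO and in the other results below was not tested.

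The values are read counts divided by a size factor per library, called normalized counts below. A gene counted as changed where limma, fitted to log2(normalized count + 1) of all 16335 genes with a mean of at least 10, gave an adjusted p under 0.05 (two-sided, Benjamini-Hochberg over all genes of the comparison). Of the 10 genes, 9 passed the filter and GUN4 did not. Fold changes are on this log2 scale, and the added 1 makes those of low genes too small. Because the libraries also held spike-in RNAs, each call was checked after scaling to the spike-ins, which moved the median of all tested genes by 0.35 in rps6a against WT and by 0.12 in eS6A-Δ6SA against WT, and by less than 0.1 in rps6b and eS6A-HA.

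In WT the genes differed widely in level per length of exon. CHLH, the porphyrin-binding subunit of Mg chelatase, was highest with 4608 ± 74.2 normalized counts per kb, followed by CHLI1 with 2046 ± 89.4, HEMA1 with 1485 ± 58.8 and CAO with 1022 ± 55.4 (SD, n = 3 each). CHLM had 622 ± 57.0 and PORC 588 ± 17.2, which did not differ beyond their spread, and neither did PORB with 309 ± 41.3 and CHLD with 308 ± 21.7. PORA stood far below with 15.2 ± 0.902, as did GUN4 with 3.54 ± 0.739. The GUN4 value is uncertain, because 73.0% of its exon bases are shared with another gene, as described below.

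The sharpest movements were within the family of light-dependent protochlorophyllide reductases (POR), and the stretches upstream of PORB, PORA and CAO are shown because these genes changed with the eS6 genotype and hold a motif searched for. Each stretch is the 186 bases before the annotated start in TAIR10.1, from RefSeq, read 5′ to 3′ on the gene's strand. Capitals mark the evening element AAAATATCT and the CCAAT-type motif CCAATC in PORB, the evening element in PORA, and a pair of G-boxes CACGTG in CAO. PORB lies on chr4:13725360-13725545 (plus strand), PORA on chr5:21992815-21993000 (minus strand) and CAO on chr1:16851272-16851457 (minus strand).
PORB: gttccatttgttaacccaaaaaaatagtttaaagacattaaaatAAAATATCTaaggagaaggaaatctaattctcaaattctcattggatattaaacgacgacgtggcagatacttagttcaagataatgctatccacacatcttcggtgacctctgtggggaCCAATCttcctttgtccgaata
PORA: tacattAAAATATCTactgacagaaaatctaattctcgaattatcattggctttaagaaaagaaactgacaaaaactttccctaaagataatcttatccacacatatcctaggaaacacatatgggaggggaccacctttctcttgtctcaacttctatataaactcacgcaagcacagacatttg
CAO: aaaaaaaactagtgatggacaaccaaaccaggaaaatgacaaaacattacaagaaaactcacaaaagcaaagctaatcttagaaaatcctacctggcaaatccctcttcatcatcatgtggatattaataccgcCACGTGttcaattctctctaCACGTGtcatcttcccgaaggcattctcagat

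Windows of 250 bases upstream of all 10 genes were searched on both strands for CACGTG, AAAATATCT, the CCA1-binding site AAAAATCT and CCAATC. The evening element, a site bound by MYB-like clock factors such as RVE1, was in 2 of the 10 windows, those of PORA at -180 to -172 and PORB at -142 to -134, against 2.36% of 27437 promoters. The G-box, a site bound by bZIP and bHLH factors, was in that of CAO at -52 to -47 and -32 to -27, against 6.49% of promoters. CCAATC was in the windows of PORB and GUN4, against 10.2%, and AAAAATCT was in that of GUN4, against 6.69%. The longest identical run between any of the 10 windows was 13 bases, between PORA and PORB, and the windows of HEMA1, CHLH, CHLI1, CHLD, CHLM and PORC held none of the 4 motifs. Exons of neighbouring genes covered 239 of the 250 bases for PORC, 163 for CHLM, 122 for CHLI1, 64 for PORB and 28 for GUN4. A match is a description of these letters and no evidence of binding.

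PORB codes for the reductase isoform known to act both in etiolated and in light-grown tissue. It had 947, 836 and 866 normalized counts in eS6A-Δ6SA, 675, 617 and 595 in eS6A-HA, 1165, 1020 and 866 in rps6a, 910, 835 and 751 in rps6b, and 532, 558 and 430 in WT. All libraries of the other 4 genotypes were above all WT libraries, and those of eS6A-Δ6SA were also all above those of eS6A-HA. PORB rose in rps6a against WT by 1.00 on the log2 scale (SE 0.10, limma adjusted p 5.91e-09), a 2.00-fold difference with a 95% interval of 1.73 to 2.31. It rose in rps6b by 0.72 (SE 0.10, limma adjusted p 2.41e-06), or 1.65-fold (1.43 to 1.90).

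PORB also rose in eS6A-Δ6SA against WT, by 0.81 (SE 0.10, limma adjusted p 3.60e-06), or 1.75-fold (1.52 to 2.02). Against eS6A-HA, which shares the mutant background, it was higher in eS6A-Δ6SA by 0.49 (SE 0.10, limma adjusted p 0.00424), or 1.40-fold (1.22 to 1.62). In eS6A-HA against WT the difference of 0.32 did not pass the test (SE 0.10, limma adjusted p 0.168, 95% interval 0.11 to 0.52). These 4 calls of PORB held under all 17 alternatives tried for each, spike-in scaling included, with values between 0.69 and 0.93 in eS6A-Δ6SA, 0.89 and 1.36 in rps6a and 0.60 and 0.79 in rps6b, each against WT, and between 0.44 and 0.70 in eS6A-Δ6SA against eS6A-HA. Of the exon bases of PORB, 71 (4.33%) are shared with AT4G27450 on the opposite strand, and whether the counting used strand was not given. AT4G27450 went the other way, with 42.7 ± 2.03 normalized counts in rps6a, 34.4 ± 3.59 in rps6b and 223 ± 28.3 in WT (SD, n = 3 each).

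**Figure D1:**
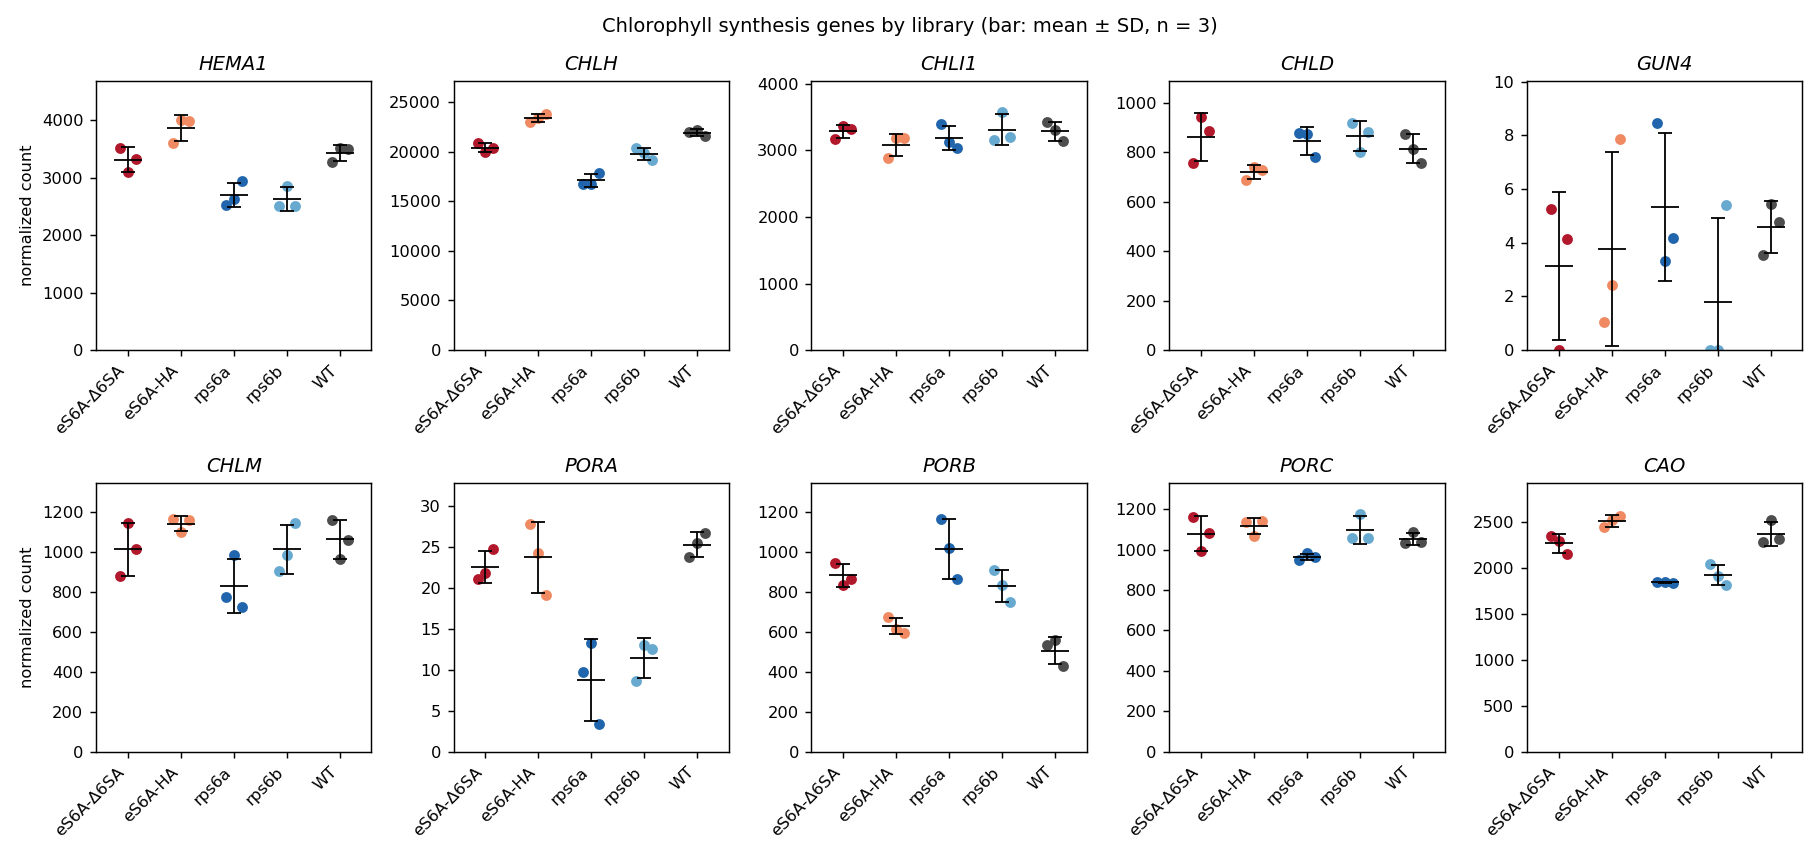
Normalized counts of the 10 chlorophyll synthesis genes (y axis, from 0) in each library, by genotype (x axis), with the mean and SD of 3 libraries as bars. PORB was lowest in WT at 430 to 558, PORA was lowest in rps6a and rps6b at 3.34 to 13.3, and GUN4 was at or below 8.47 everywhere.

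PORA, the isoform that accumulates in dark-grown seedlings and declines in light, was near the lower end of detection. It had 21.1, 21.8 and 24.7 normalized counts in eS6A-Δ6SA, 27.8, 24.3 and 19.1 in eS6A-HA, 9.68, 13.3 and 3.34 in rps6a, 8.63, 13.03 and 12.6 in rps6b, and 23.7, 25.4 and 26.7 in WT. These came from 4 to 16 reads per rps6a library, 11 to 16 per rps6b library and 20 to 28 per WT library. The single mutants were all below the 3 other genotypes, whose libraries overlapped.

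PORA fell by 1.59 on the log2 scale in rps6a against WT (SE 0.32, limma adjusted p 0.000356, 95% interval -2.25 to -0.93). It fell by 1.101 in rps6b (SE 0.32, limma adjusted p 0.0114, interval -1.76 to -0.44), a call that was lost without rps6b replicate 1 (-0.93, limma adjusted p 0.0632). In eS6A-Δ6SA the difference from WT was -0.16 (interval -0.82 to 0.50, limma adjusted p 0.891) and in eS6A-HA -0.10 (interval -0.76 to 0.56, limma adjusted p 0.947). The longest identical run between the exons of PORA and PORB is 48 bases, shorter than the 75-base reads, while PORA and PORC share at most 18.

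PORC, the isoform that predominates in light-grown green tissue, had 1162, 992 and 1082 normalized counts in eS6A-Δ6SA, 1137, 1069 and 1140 in eS6A-HA, 949, 981 and 963 in rps6a, 1056, 1176 and 1059 in rps6b, and 1030, 1087 and 1037 in WT. The rps6a libraries lay below all WT libraries, yet the difference of -0.12 did not pass the test (SE 0.08, limma adjusted p 0.272). In rps6b the difference was 0.06 (limma adjusted p 0.637), in eS6A-Δ6SA 0.03 (limma adjusted p 0.902) and in eS6A-HA 0.08 (limma adjusted p 0.747).

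The makeup of the POR transcripts was then compared per kb of exon. PORB made up 46.5%, 47.3% and 46.0% of the summed level in eS6A-Δ6SA, 38.6%, 38.0% and 35.8% in eS6A-HA, 56.9%, 52.7% and 49.4% in rps6a, 48.2%, 43.3% and 43.3% in rps6b, and 35.4%, 35.3% and 30.5% in WT. The share was higher in every library of the other 4 genotypes than in every WT library, with an exact permutation p of 0.1 in each of these 4 comparisons, the smallest that 3 against 3 libraries can give. PORB was the most abundant isoform in rps6a replicates 1 and 2, and PORC in the other 13 libraries. PORA took 1.18% ± 0.140 in eS6A-Δ6SA, 1.40% ± 0.230 in eS6A-HA, 0.445% ± 0.246 in rps6a, 0.612% ± 0.141 in rps6b and 1.67% ± 0.173 in WT (SD, n = 3 each). The summed POR level was 1155 ± 81.2 normalized counts per kb in eS6A-Δ6SA, 1022 ± 38.5 in eS6A-HA, 1164 ± 90.1 in rps6a, 1128 ± 61.8 in rps6b and 913 ± 52.6 in WT, and every library of the other genotypes was above every WT library (exact permutation p 0.1 each).

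**Figure D2:**
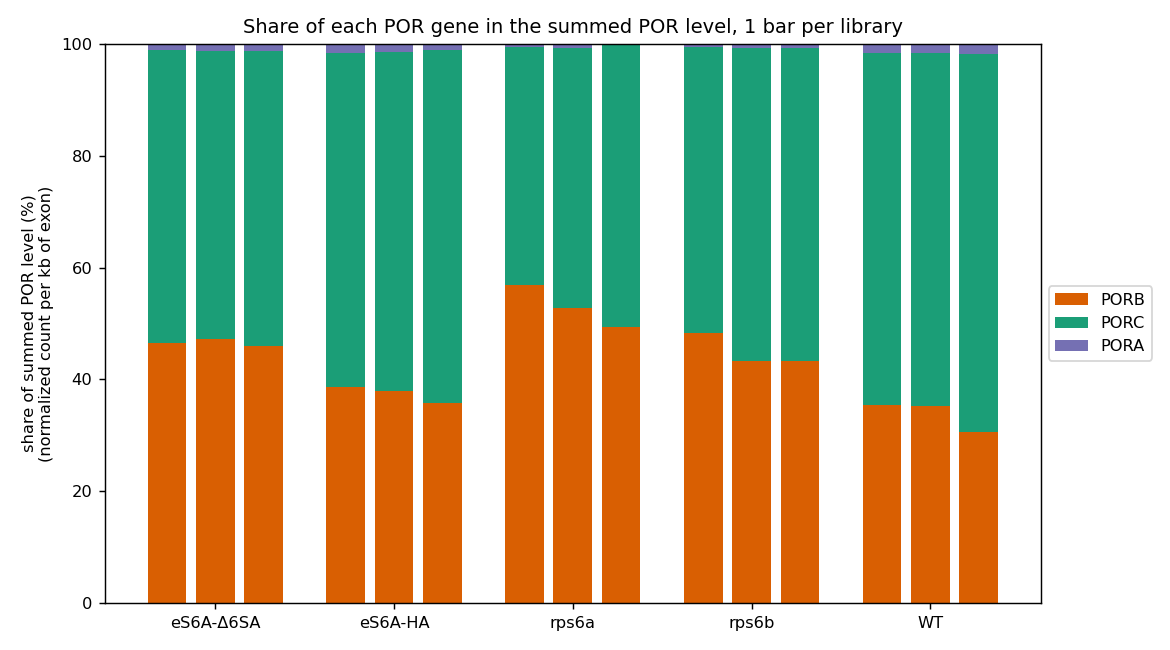
Share of PORB, PORC and PORA (stacked, %) in the summed level of the 3 POR genes per kb of exon, with 1 bar per library, by genotype. The PORB share averaged 46.6% in eS6A-Δ6SA, 37.5% in eS6A-HA, 53.0% in rps6a, 44.9% in rps6b and 33.8% in WT.

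HEMA1 codes for glutamyl-tRNA reductase, the entry enzyme that limits the supply of ALA. It had 3518, 3091 and 3323 normalized counts in eS6A-Δ6SA, 3602, 4004 and 3993 in eS6A-HA, 2524, 2634 and 2935 in rps6a, 2506, 2863 and 2498 in rps6b, and 3275, 3516 and 3504 in WT. Every library of a single mutant was below every library of the other 3 genotypes. HEMA1 fell by 0.35 in rps6a against WT (SE 0.08, limma adjusted p 0.000840), to 78.6% of the WT mean, but with spike-in scaling the difference was 0.011 (limma adjusted p 0.9502). It fell by 0.39 in rps6b (SE 0.08, limma adjusted p 0.000220), to 76.4% of the WT mean, and by 0.45 with spike-in scaling (limma adjusted p 0.00735). In eS6A-Δ6SA it was at 96.5% of the WT mean and in eS6A-HA at 113%, and neither difference passed (-0.05 and 0.17, limma adjusted p 0.834 and 0.382).

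Mg chelatase is built from the subunits CHLH, CHLI and CHLD, and GUN4 is a porphyrin-binding protein that stimulates it. CHLH had 20896, 19956 and 20348 normalized counts in eS6A-Δ6SA, 23000, 23347 and 23842 in eS6A-HA, 16770, 16700 and 17814 in rps6a, 20326, 19824 and 19157 in rps6b, and 22022, 22209 and 21526 in WT. The order eS6A-HA, WT, rps6a held without overlap, while eS6A-Δ6SA and rps6b overlapped each other below WT. CHLH fell by 0.36 in rps6a against WT (SE 0.06, limma adjusted p 1.89e-05), to 78.0% of the WT mean, but stood at 0.0017 with spike-in scaling (limma adjusted p 0.992). In rps6b the difference of -0.15 did not pass (SE 0.06, limma adjusted p 0.0650), although DESeq2 on the recovered reads called it (-0.14, DESeq2 adjusted p 0.0426).

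The other chelatase subunits passed the test in no comparison with WT. CHLI1, the main ATPase subunit, ranged from 2884 to 3576 normalized counts over all 15 libraries, with differences from WT between -0.09 and 0.01 (limma adjusted p 0.685 to 0.999). CHLD, the subunit that links CHLH and CHLI, averaged 862 ± 96.0 in eS6A-Δ6SA, 718 ± 27.9 in eS6A-HA, 844 ± 56.5 in rps6a, 867 ± 60.4 in rps6b and 815 ± 57.3 in WT (SD, n = 3 each). With spike-in scaling both were called higher in rps6a against WT, CHLI1 by 0.31 and CHLD by 0.41 (limma adjusted p 0.0271 and 0.0103), close to the shift of 0.35 in the median of all genes. Relative to CHLI1 per kb, CHLH stood at 2.10 ± 0.114 in eS6A-Δ6SA, 2.57 ± 0.112 in eS6A-HA, 1.82 ± 0.157 in rps6a, 2.02 ± 0.153 in rps6b and 2.25 ± 0.0741 in WT, a ratio that no scaling of the libraries changes. All rps6a libraries were below all WT libraries in this ratio, all eS6A-HA libraries were above all WT libraries, and all eS6A-Δ6SA libraries were below all eS6A-HA libraries (exact permutation p 0.1 each, the smallest possible). The eS6A-Δ6SA and rps6b libraries overlapped those of WT (exact permutation p 0.2 each).

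GUN4 had 5.28, 0 and 4.12 normalized counts in eS6A-Δ6SA, 1.03, 2.43 and 7.86 in eS6A-HA, 8.47, 3.32 and 4.18 in rps6a, 0, 0 and 5.39 in rps6b, and 3.56, 5.45 and 4.77 in WT. That is 0 to 7 reads per library, with overlap between all genotypes, so no difference was detectable at these counts. The GUN4 model in TAIR10.1 shares 946 of its 1296 exon bases (73.0%) with GCN2 (AT3G59410) on the opposite strand, and reads in a shared stretch may have been left out or given to the neighbour. GCN2, a protein kinase gene, averaged between 102 and 145 normalized counts in the 5 genotypes. The level of GUN4 is therefore uncertain, and the effect of the overlap was not tested.

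CHLM codes for Mg-protoporphyrin IX methyltransferase, the step after the chelatase. It had 877, 1143 and 1016 normalized counts in eS6A-Δ6SA, 1166, 1100 and 1157 in eS6A-HA, 776, 984 and 726 in rps6a, 907, 986 and 1146 in rps6b, and 1160, 965 and 1061 in WT. The rps6a and WT libraries overlapped through rps6a replicate 2. CHLM fell by 0.37 in rps6a against WT (SE 0.11, limma adjusted p 0.0146), a call lost without WT replicate 1, rps6a replicate 1 or rps6a replicate 3 (limma adjusted p 0.0719, 0.0726 and 0.0877) and with spike-in scaling (-0.0052, limma adjusted p 0.978). In rps6b the difference was -0.07, in eS6A-Δ6SA -0.07 and in eS6A-HA 0.11, with limma adjusted p from 0.695 to 0.836.

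CAO codes for chlorophyllide a oxygenase, which makes chlorophyll b. It had 2345, 2294 and 2154 normalized counts in eS6A-Δ6SA, 2439, 2517 and 2568 in eS6A-HA, 1842, 1847 and 1838 in rps6a, 2041, 1909 and 1817 in rps6b, and 2280, 2516 and 2309 in WT. As with HEMA1, every library of a single mutant was below every library of the other 3 genotypes. CAO fell by 0.36 in rps6a against WT (SE 0.07, limma adjusted p 0.000253), to 77.8% of the WT mean, with a difference of 5.2e-05 under spike-in scaling (limma adjusted p 1.00). It fell by 0.30 in rps6b (SE 0.07, limma adjusted p 0.00179), to 81.2% of the WT mean, and by 0.36 with spike-in scaling (limma adjusted p 0.0292). The differences in eS6A-Δ6SA and eS6A-HA were -0.06 and 0.08 (limma adjusted p 0.761 and 0.727).

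**Figure D3:**
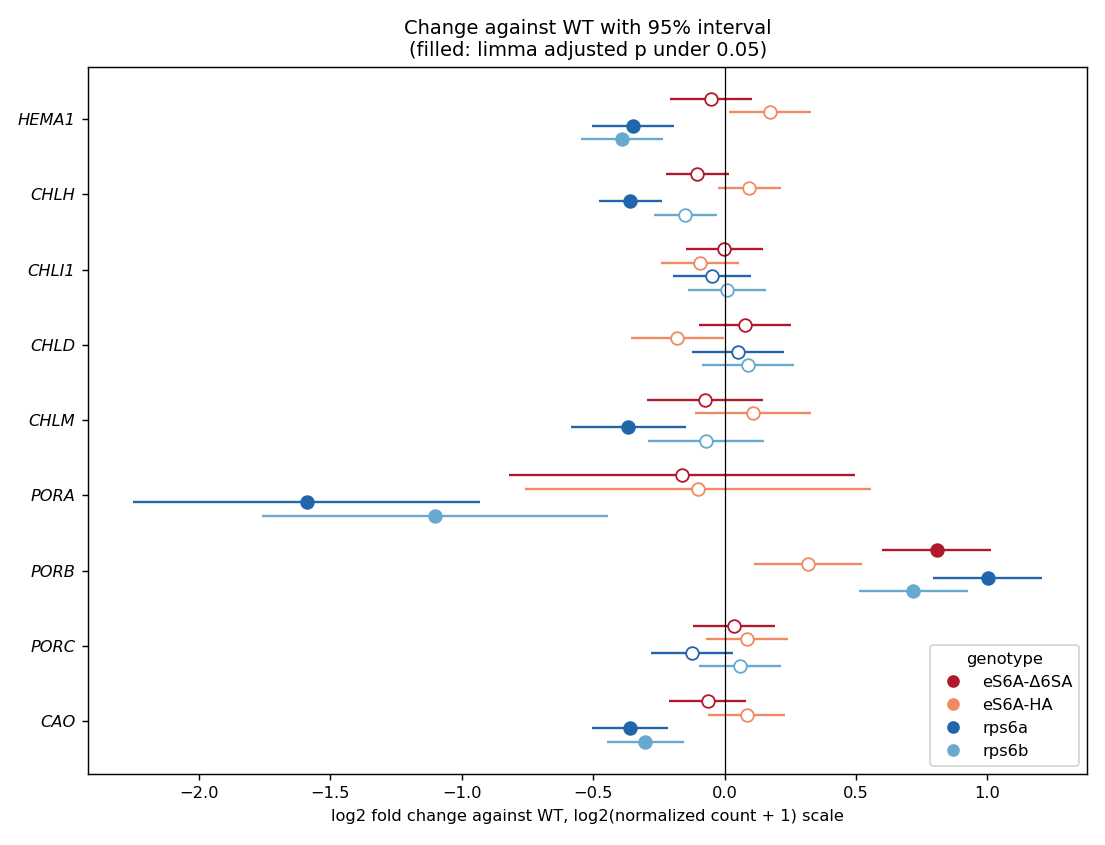
Log2 fold change against WT (x axis, log2(normalized count + 1) scale) of the 9 tested genes in eS6A-Δ6SA, eS6A-HA, rps6a and rps6b, with 95% intervals and filled points where limma's adjusted p was under 0.05. HEMA1, CAO and PORA lie left of 0 and PORB right of 0 in rps6a and rps6b, and PORB is the filled gene in eS6A-Δ6SA.

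In rps6a against WT, 6 of the 9 tested genes changed, 5 lower and 1 higher, where 21.2% of all genes tested changed, 10.8% lower and 10.4% higher. With spike-in scaling 4 of 9 were called, CHLI1, CHLD and PORB higher and PORA lower. Under it 6050 of all genes were called, 95.1% of them higher, so the share of 21.2% does not apply there. As deposited, the median difference of the 9 was -0.35, against -0.0058 over all genes. In rps6b against WT, 4 of 9 changed, 3 lower and 1 higher, against 23.3% of all genes, 11.7% lower and 11.6% higher, with a median of -0.07. The libraries of 6 of the 9 genes did not overlap between rps6a and WT, against 35.2% of all genes, and those of 5 of the 9 did not between rps6b and WT, against 36.8%. In eS6A-Δ6SA against WT, 1 of 9 changed, against 2.57% of all genes, and in eS6A-HA against WT, 0 of 9 by limma, edgeR or DESeq2, against 0.796%. Libraries did not overlap for 2 of 9 genes in eS6A-Δ6SA, against 16.7% of all genes, and for 4 of 9 in eS6A-HA, against 16.3%. At an unadjusted p under 0.05, HEMA1, CHLD and PORB differed in eS6A-HA (limma p 0.0327, 0.0456 and 0.00375), where 1826 of all 16335 genes had such a p. The 4 comparisons share the WT libraries, so their values are not independent of each other. Because the genes were chosen with earlier results of these data known, these counts are no test of the pathway.

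With spike-in scaling, PORB was higher in rps6a against WT by 1.36 (limma adjusted p 2.82e-12), more than the shift of the median, and PORA fell by 1.27 (limma adjusted p 0.00243). In rps6b the 4 calls held with spike-in scaling, with -0.45 for HEMA1, -1.15 for PORA, 0.66 for PORB and -0.36 for CAO. Under it 6050 genes were called in rps6a against WT, 95.1% of them higher, against 3468 genes of which 49.1% were higher with the deposited scaling.

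**Figure D4:**
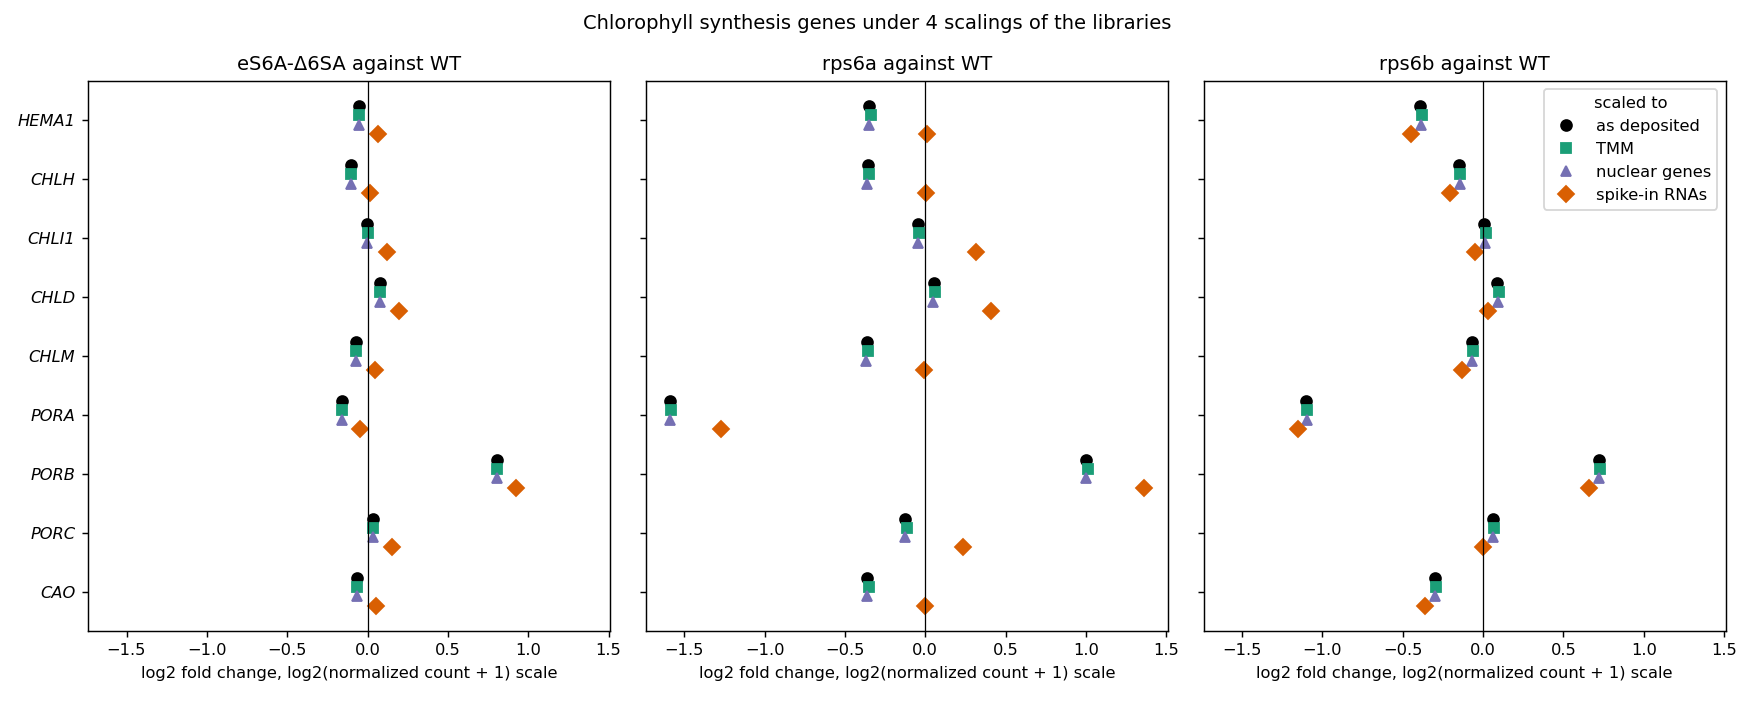
Log2 fold change against WT (x axis) of the 9 tested genes in eS6A-Δ6SA, rps6a and rps6b, with libraries scaled as deposited, by TMM, to nuclear genes, or to spike-in RNAs. In rps6a the spike-in values of HEMA1, CHLH, CHLM and CAO sit at 0, PORB moves to 1.36 and PORA to -1.27, while the other scalings leave the values in place.

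The single mutants were then set against each other. In rps6a against rps6b, 1 of 9 genes changed, against 2.92% of all genes. It was CHLH, which fell by 0.21 in rps6a (SE 0.06, limma adjusted p 0.0421), and the call was lost with edgeR (edgeR adjusted p 0.0632) and without 5 of the 6 libraries in turn, among them rps6a replicates 1 and 2 (limma adjusted p 0.149 and 0.163) and rps6b replicates 1, 2 and 3 (limma adjusted p 0.134, 0.121 and 0.0634). With spike-in scaling, which moved the median of all genes by 0.41 here, 5 of 9 genes were called, all higher in rps6a, with HEMA1 at 0.46, CHLI1 at 0.36, CHLD at 0.38, PORB at 0.70 and CAO at 0.36, and 6964 genes were called in all. As deposited, PORB differed by 0.28 (95% interval 0.08 to 0.49, limma adjusted p 0.142), and by 0.39 without rps6a replicate 3 (limma adjusted p 0.0386). CHLM differed by -0.29 (limma adjusted p 0.157), and by -0.42 without rps6a replicate 2 (limma adjusted p 0.0234), and PORA by -0.49 (interval -1.15 to 0.17, limma adjusted p 0.536).

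The transgenic lines were set against the single mutants next. In eS6A-HA against rps6a, 8 of 9 genes changed, against 23.6% of all genes, with HEMA1 higher by 0.52, CHLH by 0.45, CHLM by 0.47, PORA by 1.49, CAO by 0.44 and PORC by 0.21, and with CHLD at -0.23 and PORB at -0.68. The calls of PORC and CHLD were at limma adjusted p 0.0442 and 0.0495 and held in 7 and 8 of 17 alternatives. With spike-in scaling the differences of CHLH, CAO and PORC were -0.0030, -0.012 and -0.25, and those of HEMA1 and CHLM were 0.064 and 0.017. In eS6A-HA against rps6b, 6 of 9 changed, against 22.9%, with HEMA1, CHLH, PORA and CAO higher by 0.56, 0.24, 1.00 and 0.38 and CHLD and PORB lower, at -0.27 and -0.40. With spike-in scaling 4 of 9 were called, where 2443 of all genes were called. CHLH and CHLD were not called under it (0.21 and -0.31, limma adjusted p 0.215 and 0.102). The CHLD call was also lost when rps6b replicate 1, rps6b replicate 3 or eS6A-HA replicate 1 was left out (limma adjusted p 0.0678 to 0.0931), and the PORA call when rps6b replicate 1 or either of eS6A-HA replicates 1 and 2 was left out (limma adjusted p 0.0655 to 0.104).

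In eS6A-Δ6SA against rps6a, 4 of 9 genes changed, against 12.9% of all genes. HEMA1, CHLH, PORA and CAO were higher, by 0.30, 0.26, 1.43 and 0.30 (limma adjusted p 0.00749, 0.00288, 0.00227 and 0.00416). The HEMA1 call was lost without rps6a replicate 1 or eS6A-Δ6SA replicate 1 (limma adjusted p 0.0536 and 0.0543), and with spike-in scaling HEMA1, CHLH and CAO were at 0.055, 0.014 and 0.055. CHLM was at 0.29 (limma adjusted p 0.0751), and passed without rps6a replicate 2 or eS6A-Δ6SA replicate 1 (limma adjusted p 0.00870 and 0.0209). In eS6A-Δ6SA against rps6b, 3 of 9 changed, against 16.5%, with HEMA1, PORA and CAO higher by 0.34, 0.94 and 0.24 (limma adjusted p 0.00185, 0.0419 and 0.0191). The PORA call was lost without any 1 of the 6 libraries (limma adjusted p up to 0.160) and the CAO call without rps6b replicate 2 or 3 or eS6A-Δ6SA replicate 1 or 2 (limma adjusted p up to 0.112). PORB did not pass in either as deposited, at -0.19 against rps6a (95% interval -0.40 to 0.01, limma adjusted p 0.231; -0.44 and 0.0150 with spike-in scaling) and 0.09 against rps6b (interval -0.12 to 0.29, limma adjusted p 0.624).

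In eS6A-Δ6SA against eS6A-HA, the pair that differs in the transgene, 1 of 9 genes changed, against 2.63% of all genes, and it was PORB. HEMA1 differed by -0.22 (95% interval -0.38 to -0.07, limma adjusted p 0.118), CHLH by -0.20 (interval -0.32 to -0.08, limma adjusted p 0.0648), CHLD by 0.26 (interval 0.08 to 0.43, limma adjusted p 0.112) and CAO by -0.15 (interval -0.29 to -0.0028, limma adjusted p 0.307). The libraries of these 4 genes and of PORB did not overlap between the lines, which was so for 20.6% of all genes. CHLH passed with DESeq2 (DESeq2 adjusted p 0.0171) and without a filter on low values (limma adjusted p 0.04997), and CHLD passed with spike-in scaling (limma adjusted p 0.0235) and without eS6A-Δ6SA replicate 1 (limma adjusted p 0.0218). RPS6A, where reads of a matching transgene would be counted, averaged 1239 ± 137 normalized counts in eS6A-Δ6SA and 1827 ± 57.4 in eS6A-HA (SD, n = 3 each). RPS6A and RPS6B differed between the lines by -0.56 and -0.42 (limma adjusted p 0.00293 and 0.0141), and their part in the PORB difference was not tested.

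Other genes of the pathway, listed by step, did not all move with the 10. Before the magnesium branch, 4 of 15 tested genes rose in rps6a against WT and 10 of 15 rose in rps6b, and 0 fell in either, where 10.4% and 11.6% of all genes rose. Those of the ALA steps beside HEMA1 were the glutamate-1-semialdehyde aminotransferase genes GSA2, higher by 0.35 in rps6a and 0.81 in rps6b (limma adjusted p 0.00275 and 5.41e-09), and GSA1, higher by 0.28 and 0.57 (limma adjusted p 0.0335 and 3.49e-05). The uroporphyrinogen decarboxylase gene HEME1 was higher by 0.40 in each, the coproporphyrinogen oxidase gene HEMF1 by 0.33 in rps6a and the porphobilinogen deaminase gene HEMC by 0.40 in rps6b. HEMA2, the paralog of HEMA1 with a longest identical run of 49 bases, did not pass the test (0.01 and 0.05, limma adjusted p 0.965 and 0.853). The median of the 15 genes was 0.18 in rps6a and 0.34 in rps6b. With spike-in scaling 13 of 15 rose in rps6a, 2 of 15 in rps6b and 0 fell. Under it 6050 of all genes were called in rps6a, 95.1% of them higher, and 2569 in rps6b, 42.2% of them higher.

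Of 8 other genes of the magnesium branch, 0 rose and 2 fell in rps6a, and 3 rose and 2 fell in rps6b, where 21.2% and 23.3% of all genes changed, so that the share in rps6a was near that of all genes. Lower in each were CRD1, a subunit of the cyclase that forms the fifth ring, at -0.40 and -0.29 (limma adjusted p 1.34e-05 and 0.000806), and CHLP, the reductase that makes the phytyl tail, at -0.26 and -0.27 (limma adjusted p 0.00232 and 0.00125). With spike-in scaling CRD1 and CHLP were at -0.04 and 0.10 in rps6a and still lower in rps6b. Higher in rps6b were the divinyl reductase gene DVR by 0.54, the cyclase subunit gene LCAA by 0.46 and CHLI2, the second ATPase subunit gene, by 0.43, whereas in rps6a CHLI2 was at -0.05 (limma adjusted p 0.826). Set against rps6b, CHLI2 fell by 0.47 in rps6a (limma adjusted p 0.00886), and its longest identical run with CHLI1 is 44 bases.

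In the heme, bilin and siroheme branch, 1 of 7 tested genes rose and 0 fell in each single mutant, a share near the 10.4% and 11.6% of all genes that rose. It was UPM1, which methylates uroporphyrinogen III toward siroheme, higher by 0.82 in rps6a and 0.72 in rps6b (limma adjusted p 3.66e-06 and 2.67e-05). UPM1 was also higher in eS6A-Δ6SA, by 0.53 against WT and 0.54 against eS6A-HA (limma adjusted p 0.00972 and 0.00760), as PORB was. The ferrochelatase genes FC1 and FC2 did not pass (0.05 and -0.21 in rps6a, 0.21 and -0.20 in rps6b). Of 9 breakdown genes, 1 rose and 2 fell in each single mutant, where 21.2% of all genes changed in rps6a and 23.3% in rps6b, with the pheophorbide oxygenase gene PAO at -0.43 and -0.29 and SGRL at -0.28 in each, NYC1 higher by 0.25 in rps6a and CLH1 by 0.50 in rps6b. With spike-in scaling 3 of the 9 rose in rps6a and 1 in rps6b, and 0 fell in either, so the falls of PAO and SGRL lost the call. Under it 6050 and 2569 of all genes were called, 95.1% and 42.2% of them higher. In eS6A-HA against WT, CLH1 was the 1 gene of these 4 lists that changed, higher by 0.53 (limma adjusted p 0.00167), where 0.796% of all genes changed. With spike-in scaling 0 of the 9 breakdown genes rose or fell in eS6A-HA, so the CLH1 call was lost.

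**Figure D5:**
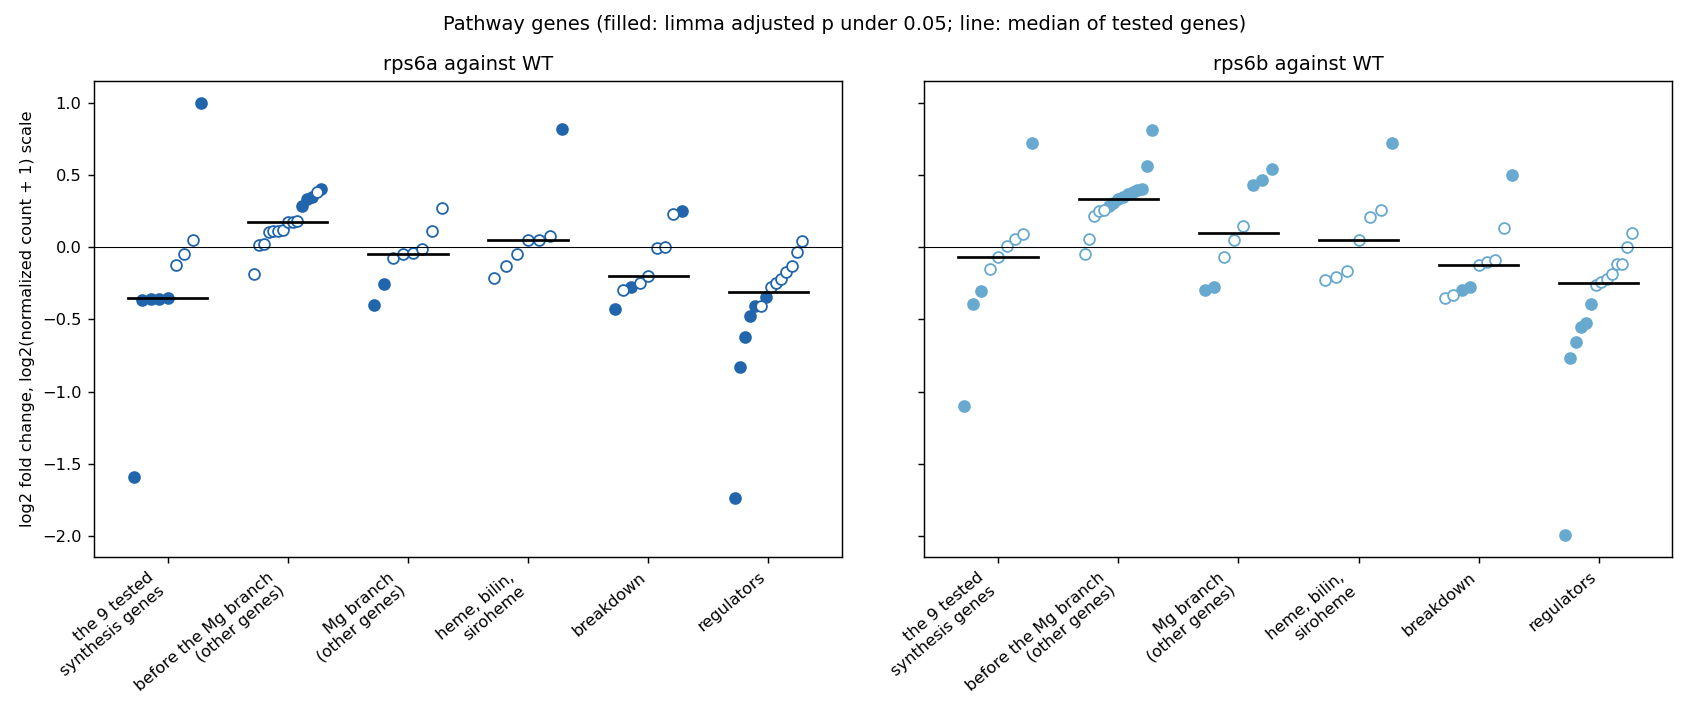
Log2 fold change (y axis, log2(normalized count + 1) scale) in rps6a and rps6b against WT of the 9 tested genes and of 5 lists of other pathway genes (x axis), with filled points where limma's adjusted p was under 0.05 and a line at each median. The genes before the magnesium branch lie mostly above 0, with medians of 0.18 and 0.34, and the regulators mostly below, with medians of -0.31 and -0.25.

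Of 14 genes known to regulate chlorophyll synthesis, 6 fell and 0 rose in each single mutant, where 10.8% of all genes fell in rps6a and 11.7% in rps6b. The list was not split by whether a factor raises or lowers its targets, so the count of falls gives no direction for the synthesis genes. The largest fall was that of RVE1, a MYB-like clock output factor known to bind the PORA promoter. RVE1 had 458, 454 and 422 normalized counts in eS6A-Δ6SA, 571, 659 and 583 in eS6A-HA, 214, 164 and 207 in rps6a, 176, 156 and 155 in rps6b, and 625, 592 and 734 in WT. Against WT, RVE1 differed by -0.54 in eS6A-Δ6SA, -1.74 in rps6a and -2.00 in rps6b (limma adjusted p 0.000938, 4.99e-15 and 1.01e-16), and eS6A-Δ6SA differed from eS6A-HA by -0.44 (limma adjusted p 0.00971). With spike-in scaling both differences of eS6A-Δ6SA lost the call (-0.42 and -0.23, limma adjusted p 0.127 and 0.333). PORA and RVE1 were both lower in rps6a and rps6b. In eS6A-Δ6SA against WT the interval of PORA given above includes the RVE1 difference of -0.54, so the values do not tell these genes apart there. The part of RVE1 in the level of PORA was not tested.

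The other regulators that fell in both single mutants were PIF1, at -0.62 and -0.77, and PIF5, at -0.48 and -0.52, which code for bHLH factors degraded in light, and the GATA factor gene CGA1, at -0.83 and -0.55. GLK2, a Golden2-like activator of HEMA1, CHLH and CAO, also fell, at -0.35 and -0.39 (limma adjusted p 0.00189 and 0.000474), while its paralog GLK1 was at 0.04 and 0.10 (limma adjusted p 0.737 and 0.356) and HY5 at -0.28 and -0.12 (limma adjusted p 0.356 and 0.734). PIF3 fell by 0.66 in rps6b (limma adjusted p 0.000638). With spike-in scaling the same 6 regulators fell in rps6b, while in rps6a 1 regulator fell, RVE1 by 1.38, and 1 rose, GLK1 by 0.40. Under it 2569 of all genes were called in rps6b, 42.2% of them higher, and 6050 in rps6a, 95.1% of them higher. In eS6A-HA 0 of 14 passed limma.

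Of 7 clock genes tested, 1 rose and 2 fell in eS6A-Δ6SA against WT, 2 rose and 2 fell in rps6a, and 1 rose and 2 fell in rps6b, where 2.57%, 21.2% and 23.3% of all genes changed. LHY and CCA1, the morning factors, differed from WT by -0.81 and -0.45 in eS6A-Δ6SA, -1.08 and -1.07 in rps6a, and -0.81 and -0.94 in rps6b (limma adjusted p 0.000377 or less), and GI, expressed late in the day, was higher by 0.62, 0.82 and 0.72 (limma adjusted p 0.00195, 4.33e-06 and 3.50e-05), as was TOC1 in rps6a by 0.54 (limma adjusted p 0.0332). With spike-in scaling 1 clock gene rose and 1 fell in eS6A-Δ6SA, 3 rose and 2 fell in rps6a, and 1 rose and 2 fell in rps6b. Under it 257, 6050 and 2569 of all genes were called in these comparisons. No clock gene of the 7 tested passed in eS6A-HA against WT. The time of day at harvest was not given in the sources used here, and its part in the differences of PORA, PORB and the regulators was not tested.

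Across the 15 libraries, HEMA1, CHLH and CAO followed each other closely, with Pearson's r of 0.91 between CAO and HEMA1, 0.90 between CAO and CHLH and 0.83 between CHLH and HEMA1 on the log2 scale. PORB ran against them, with r of -0.75 to CHLH, -0.65 to CAO and -0.65 to HEMA1. PORA had r of 0.77 to CAO and -0.56 to PORB, and CHLI1 had r between -0.21 and 0.52 with the other genes. These values describe 15 libraries that fall into 5 genotypes and share their scaling, and carry no test.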

How the data were processed

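Ribosomal-RNA-depleted total RNA with ERCC spike-ins was sequenced as paired 75-base reads in 15 libraries. The deposited values are a signal unit, gene counts that the authors divided by size factors with DESeq2 1.26.0 after alignment with STAR 2.7.6a to TAIR10 and counting with featureCounts 2.0.0, per the submitters' processing notes. The use of strand and the handling of overlaps are not given in the sources used here. Every positive value was a whole multiple of the value of 1 read (tolerance 0.01), so reads were recovered. Libraries held 5726410 to 10009723 gene reads, and counting error is largest for GUN4 and PORA.

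Log2(value + 1) was fitted with limma 3.58.1 in R 4.3.3 (trend and robust options) over all 15 libraries, without the spike-in rows, for 10 comparisons of 5 genotypes and the 16335 genes that averaged 10 or more, with Benjamini-Hochberg adjustment per comparison and a threshold of 0.05. The fit was also run on simulated counts with a fixed dispersion and a small set of genes changed in rps6a. That run does not cover the spread between these libraries or the larger share of genes called in them. Alternatives were edgeR 4.0.16 (quasi-likelihood) and DESeq2 1.42.0 on recovered reads, other scalings, pseudocounts and filters, only the groups compared, a replicate block and leaving out each library. The text names all 10 genes, from each list of other genes at most 4 called per comparison by size of change, HEMA2, CHLI2, CRD1, FC1, FC2, GLK1, GLK2 and HY5 whatever their values, and genes most like a member by correlation. The members and lists were chosen with earlier results of these data known. TAIR10.1 from RefSeq served for sequences, exon lengths and overlaps, and all 10 genes matched it.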

Additional observations from a re-analysis of the deposited data

How the results depend on the processing

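Over 1519 recomputed values of single genes, 1437 kept their side of the threshold with no change of sign in a called value (56 of these, uncalled under both settings, changed sign), 57 lost the call, 14 gained it and 11 changed sign with a call at stake, all 11 with spike-in scaling. Those were HEMA1 (0.011), CHLH (0.0017), CHLI1 (0.31) and CAO (5.2e-05) in rps6a against WT, CHLH (0.21), CHLI1 (0.36), CHLD (0.38) and CAO (0.36) in rps6a against rps6b, and CHLH (-0.0030), PORC (-0.25) and CAO (-0.012) in eS6A-HA against rps6a. Spike-in scaling rests on equal addition of the spike-ins, which was not tested. The number of genes called in eS6A-Δ6SA against eS6A-HA was 2 with DESeq2, with spike-in scaling and with no filter on low values, and 1 as reported. In rps6a against rps6b it was 0 with edgeR or with only the groups compared and 5 with spike-in scaling. In eS6A-HA against rps6a it was 4 and in eS6A-Δ6SA against rps6a 2 with spike-in scaling, where 8387 and 2604 of all genes were called. Leaving out each library gave 5 to 6 in rps6a against WT, 3 to 4 in rps6b against WT, 1 to 2 in eS6A-Δ6SA against eS6A-HA, 0 to 2 in rps6a against rps6b, 6 to 7 in eS6A-HA against rps6a, 4 to 6 in eS6A-HA against rps6b, 3 to 5 in eS6A-Δ6SA against rps6a and 1 to 2 in eS6A-Δ6SA against rps6b. Against WT it gave 1 for eS6A-Δ6SA and 0 for eS6A-HA throughout. Apart from spike-in scaling, the cause was not tested. Same-numbered libraries deviated together little (30 pairs, r from -0.16 to 0.18, 2 over 0.1), as did other-numbered ones (60 pairs, r from -0.20 to 0.19, 4 over 0.1). These values cannot tell whether the numbers mark shared cultures or days, which the labels do not say. With the replicate block 1 gene was called in eS6A-Δ6SA against WT, 0 in eS6A-HA, 6 in rps6a and 4 in rps6b, and 7 in eS6A-HA against rps6a, where CHLD was lost (limma adjusted p 0.0516). Low read numbers limit GUN4, with at most 7 reads per library, and PORA, with at most 28. For GUN4 the overlap with GCN2 may also have lowered the count, which was not tested.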

Other observations

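Genes whose levels ran most like those of the chlorophyll synthesis genes were ranked by Pearson's r of log2 values over the 15 libraries, among 10150 other genes with a mean of at least 50. The nearest 3 to HEMA1 were NADK2 (r 0.985), which codes for the chloroplast NAD kinase, AT5G54170 (r 0.983) and HDR (r 0.963), the last enzyme of the plastid isoprenoid pathway. CHLH was nearest to PSY (r 0.96), the entry enzyme of carotenoid synthesis. PORA was nearest to DRT112 (r 0.94), a plastocyanin gene, and PORB to OASA1 (r 0.95), a cytosolic cysteine synthase gene, PHS2 (r 0.94), a cytosolic glucan phosphorylase gene, and BGLU44 (r 0.93). CAO was nearest to TRM3 (r 0.97) and CHLM to CAC3 (r 0.90), a subunit of plastid acetyl-CoA carboxylase. GUN4 reached at most 0.78, at 0 to 7 reads per library. These values describe libraries of 5 genotypes that share their scaling, and carry no test.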
